A study of Homo sapiens with 24 samples.

Results

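The 10 genes described here encode regulators of the mitochondrial pathway of apoptosis that belong to the BCL2 family. They are BCL2, BCL2L1, BCL2L11, MCL1, BMF, BBC3, PMAIP1, BID, BAX and BIK. They were picked out by gene symbol, although the choice of these genes was made with earlier results of these data known, and all 10 were found among the 23368 genes of the count table. RNA was sequenced from the AGS line, established from a human gastric adenocarcinoma and labelled as wild type in genotype. Cells of each group were collected at 24 h, in 4 biological replicates that the labels also number as batches, which gave 24 libraries. Control cells had no treatment, and the labels do not say whether they received vehicle. PI103, an inhibitor of PI3 kinase and mTOR, was given at 0.7 µM. PD0325901, an inhibitor of the kinase MEK, was given at 0.035 µM. (5Z)-7-oxozeaenol, an inhibitor of the kinase TAK1 that is called oxozeaenol here, was given at 0.5 µM. The first combination held PI103 at 0.35 µM and oxozeaenol at 0.25 µM, and the second held PI103 at 0.35 µM and PD0325901 at 0.0175 µM, so each agent was at 50% of its single-agent concentration. All groups share the same cell line and the same time point, so nothing here speaks to other gastric cells or to earlier times.

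Proteins of the BCL2 family meet at the outer membrane of the mitochondrion. Anti-apoptotic members such as BCL2, BCL-xL and MCL1 hold the effector BAX in check, and the BH3-only proteins bind the anti-apoptotic members or activate the effectors, after which cytochrome c leaves the mitochondrion and caspases are activated. In epithelial cells that depend on growth factor signalling, ERK and AKT are known to restrain BH3-only proteins such as BIM and BMF, both through their genes and through the proteins themselves. Transcript counts cover only the gene side of this control.

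The depth was 38057638 to 84226380 counts in genes per library. The epithelial markers fixed for a check of the label were abundant, with EPCAM at 619.5 to 988 CPM (counts scaled to a common library total) and KRT8 at 2115 to 3587 CPM. The leukocyte gene PTPRC had 0 counts in 12 libraries and did not exceed 0.101 CPM, and CD3E had 0 in 22. The third leukocyte marker, the macrophage-associated CD68, was present in every library at 0.617 to 3.50 CPM and rose with PD0325901 (log2 1.49, adjusted p = 8.52e-05) and PI103+PD0325901 (log2 1.00, adjusted p = 0.00413). The 3 leukocyte markers summed to 0.643 to 1.00 CPM in control and 1.12 to 3.54 CPM with PD0325901. Summed over 3 fibroblast markers, of which COL1A2 was at 0 in 21 libraries, the level was 14.2 to 17.3 CPM in control, 32.2 to 34.3 with PI103 and 7.97 to 9.72 with oxozeaenol. That sum consisted mainly of COL1A1. The part of these markers in the results below was not tested.

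BCL2L11, BMF and PMAIP1 are introduced first, with the sequence before their start sites. BCL2L11 encodes the BH3-only protein BIM, BMF encodes BCL2-modifying factor, and PMAIP1 encodes NOXA, which binds MCL1 in particular. In GENCODE release 29 on GRCh38, BCL2L11 lies at chr2:111119378-111168447 on the plus strand, BMF at chr15:40087890-40108892 on the minus strand and PMAIP1 at chr18:59899948-59904306 on the plus strand. The 200 bases that end 51 bases before a RefSeq start site (GRCh38.p14) are printed 5′ to 3′ on the strand of the gene, because these promoters belong to the genes with the largest changes. They cover chr2:111120664-111120863 for BCL2L11, chr15:40108930-40109129 for BMF and chr18:59899746-59899945 for PMAIP1. The BCL2L11 stretch and its RefSeq start site (111120914) lie inside the gene as placed by GENCODE. BMF has another RefSeq window, at chr15:40106917-40107216, which was searched but is not printed. Capitals mark a match to GTAAACA, a forkhead (FOXO-type) motif.
BCL2L11: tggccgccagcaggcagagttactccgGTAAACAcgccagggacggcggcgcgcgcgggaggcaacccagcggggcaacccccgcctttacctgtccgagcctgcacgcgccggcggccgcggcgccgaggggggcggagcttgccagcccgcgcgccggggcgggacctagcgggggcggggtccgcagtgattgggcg
BMF: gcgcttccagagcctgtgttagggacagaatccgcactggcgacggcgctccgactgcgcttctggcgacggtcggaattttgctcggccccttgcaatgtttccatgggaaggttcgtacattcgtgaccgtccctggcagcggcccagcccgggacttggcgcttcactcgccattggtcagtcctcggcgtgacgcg
PMAIP1: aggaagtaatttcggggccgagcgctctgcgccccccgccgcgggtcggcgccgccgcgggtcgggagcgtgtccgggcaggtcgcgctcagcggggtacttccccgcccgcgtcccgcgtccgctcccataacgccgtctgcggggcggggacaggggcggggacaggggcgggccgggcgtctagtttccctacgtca
The search covered 300 bases around each start site, 250 before it and 50 after, on both strands. The motifs were GTAAACA, the AP-1 motif TGANTCA, the CRE TGACGTCA, the C/EBP-ATF motif TGATGCAA and the E-box CACGTG. Windows were found for 8 of the 10 members, 14 windows in all. The forkhead match of BCL2L11, 223 bases before the start site, was the only GTAAACA in these windows, and 3.42% of all 35116 RefSeq windows of this length hold one. BAX, the effector, held 4 E-boxes, at 138, 93, 45 and 14 bases before the start site, and 1 E-box of BID lay in 2 overlapping windows of its 5. BBC3 held TGAGTCA at 113 and CACGTG at 232 bases before the start site. An E-box was present in 7.26% of all windows and TGANTCA in 7.71%. The windows of BMF and PMAIP1 held none of the 5 motifs, which says only that these letters are absent there.

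Against control, the direction of change differed from member to member. BCL2L11 rose in every treatment, PMAIP1 and MCL1 fell in every treatment, and BID passed the test in none. BMF rose with PI103, PD0325901 and both combinations but was lower with oxozeaenol. The grid of log2 fold changes against control shows the 9 members that could be tested.

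**Figure D1:**
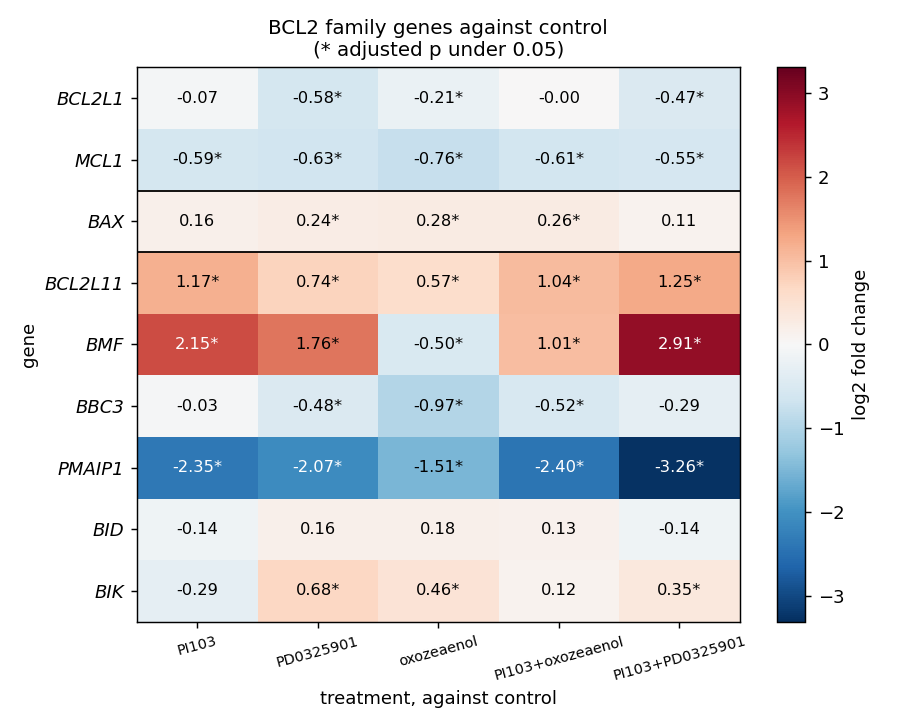
Log2 fold change of 9 BCL2 family genes (rows) in each treatment (columns) against control, with 4 libraries per group and an asterisk at an adjusted p under 0.05. BMF and PMAIP1 hold the strongest colours, up to 2.91 and down to -3.26 with PI103+PD0325901, while BID stays between -0.14 and 0.18.

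A gene was called when its edgeR quasi-likelihood p, adjusted by Benjamini-Hochberg over all 13947 genes tested, was under 0.05. PI103 changed 4 of the 9 tested members beside 51.4% of all genes tested, 2 of them upward (26.2% of all genes) and 2 downward (25.2%). PD0325901 changed 8 beside 58.6% of all genes, 4 upward (28.7%) and 4 downward (29.9%). Oxozeaenol changed 8 beside 51.9%, 3 upward (25.7%) and 5 downward (26.1%), although 5 members were called without control replicate 3. PI103+oxozeaenol changed 6 beside 55.6%, 3 upward (27.7%) and 3 downward (27.9%). PI103+PD0325901 changed 6 beside 64.8%, 3 upward (32.2%) and 3 downward (32.6%). The member counts therefore sit on a background in which more than 50% of genes moved, and the 5 comparisons share the control libraries. The median change of the tested members lay between -0.21 and 0.16 on the log2 scale, against -0.02 to 0.02 for all genes. RNA of a whole culture does not tell fewer cells of a kind from less RNA per cell.

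BMF, whose protein is tethered to dynein light chain until released to bind BCL2-like proteins, spanned the widest range. Control libraries held 12.9, 9.76, 12.8 and 10.2 CPM. PI103 libraries held 54.2, 46.7, 50.3 and 51.0 CPM, and PD0325901 libraries held 36.2, 58.6, 31.8 and 28.3 CPM. All 8 of these libraries were above all controls, and PD0325901 replicate 2 stood above the other PD0325901 libraries. With PI103+PD0325901 the levels were 87.0, 105, 77.3 and 74.3 CPM. With PI103+oxozeaenol they were 24.4, 19.1, 24.7 and 23.9 CPM, and with oxozeaenol alone 7.29, 7.64, 8.97 and 8.59 CPM. The PI103+PD0325901 libraries exceeded every other library, and the oxozeaenol libraries lay below every other library.

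The BMF rise against control was 4.42-fold with PI103 (log2 2.15, SE 0.168, adjusted p = 2.6e-10), 3.39-fold with PD0325901 (log2 1.76, SE 0.167, adjusted p = 3.54e-09) and 7.51-fold with PI103+PD0325901 (log2 2.91, SE 0.173, adjusted p = 8.58e-13). With PI103 it ranked 114th from the highest of 13947 genes by log2 fold change. It ranked 259th with PI103+PD0325901, 621st with PD0325901 and 1263rd with PI103+oxozeaenol. Without PD0325901 replicate 2 the change with PD0325901 was 1.52. PI103+oxozeaenol gave a 2.01-fold rise (log2 1.01, SE 0.165, adjusted p = 1.47e-05). The decrease with oxozeaenol was 1.41-fold (log2 -0.50, SE 0.169, adjusted p = 0.0166), and it missed the threshold without control replicate 1 (-0.43, adjusted p = 0.0571) or control replicate 3 (-0.43, adjusted p = 0.0558). PI103 and oxozeaenol differed directly by 2.64 (adjusted p = 2.79e-11). The order of BMF levels ran from PI103+PD0325901 through PI103, PD0325901, PI103+oxozeaenol and control to oxozeaenol. Each neighbour in it differed except PI103 and PD0325901, whose difference of 0.39 missed the threshold (interval of ±2 SE from 0.07 to 0.71, adjusted p = 0.0529). That difference was 0.62 without PD0325901 replicate 2 (adjusted p = 0.000206), 0.40 with the batch as a block (adjusted p = 0.0416) and 0.38 by DESeq2 (adjusted p = 0.0494).

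PMAIP1, which encodes NOXA, showed the largest decrease. Control libraries held 53.1, 86.0, 75.0 and 75.8 CPM. Oxozeaenol libraries held 22.1, 37.1, 24.0 and 18.6 CPM, and PD0325901 libraries held 21.2, 9.38, 19.0 and 19.2 CPM. No treated library reached the lowest control, and PD0325901 replicate 2, the highest of its group for BMF, was the lowest of its group here. PI103 libraries held 14.8, 11.7, 15 and 15.2 CPM. PI103+oxozeaenol libraries held 12.1, 18.4, 11 and 13.3 CPM, and PI103+PD0325901 libraries held 6.47, 6.25, 8.52 and 9.11 CPM. The last group lay below every other library of the series for this gene.

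PMAIP1 was 9.57-fold lower than control with PI103+PD0325901 (log2 -3.26, SE 0.241, adjusted p = 4.56e-11), which ranked it 96th from the lowest of 13947 genes. Its rank was 129th with PI103, 132nd with PI103+oxozeaenol, 176th with PD0325901 and 295th with oxozeaenol. PMAIP1 was 5.11-fold lower with PI103 (log2 -2.35, SE 0.231, adjusted p = 1.2e-08) and 5.29-fold lower with PI103+oxozeaenol (log2 -2.40, SE 0.231, adjusted p = 6.96e-09). PD0325901 gave a 4.21-fold decrease (log2 -2.07, SE 0.228, adjusted p = 4.61e-08), which was -1.85 without PD0325901 replicate 2, and oxozeaenol a 2.84-fold decrease (log2 -1.51, SE 0.223, adjusted p = 5.64e-06). In the order of levels, only the outermost neighbours differed. Oxozeaenol was below control, and PI103+PD0325901 was below PI103+oxozeaenol (-0.85, adjusted p = 0.00695). The 4 groups between these ends (oxozeaenol, PD0325901, PI103 and PI103+oxozeaenol) did not differ between neighbours at the threshold. The nearest to it, oxozeaenol above PD0325901 by 0.57 (adjusted p = 0.0577), passed by DESeq2 (0.56, adjusted p = 0.033) and without oxozeaenol replicate 4 (0.69, adjusted p = 0.0281).

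BCL2L11, which encodes BIM, an activator of BAX and a binder of all major anti-apoptotic members, rose in every treatment. Control libraries held 19.1, 14.7, 17.7 and 13.1 CPM. PI103 libraries held 36.6, 35.5, 38.1 and 35.3 CPM, and PI103+PD0325901 libraries held 43.7, 35.0, 37.8 and 36.6 CPM. The groups did not overlap with control. PI103+oxozeaenol libraries held 32.8, 32.4, 32.9 and 34.7 CPM. PD0325901 libraries held 30.4, 29.5, 23.7 and 24.5 CPM, and oxozeaenol libraries held 27.3, 21.2, 23.5 and 24.2 CPM. PD0325901 and oxozeaenol overlapped with each other but not with control.

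The BCL2L11 rise was 2.25-fold with PI103 (log2 1.17, SE 0.107, adjusted p = 1.52e-09), 2.05-fold with PI103+oxozeaenol (log2 1.04, SE 0.106, adjusted p = 8.5e-09) and 2.37-fold with PI103+PD0325901 (log2 1.25, SE 0.107, adjusted p = 1.84e-10). It was 1.67-fold with PD0325901 (log2 0.74, SE 0.106, adjusted p = 1.47e-06) and 1.49-fold with oxozeaenol (log2 0.57, SE 0.106, adjusted p = 7.29e-05). PI103 exceeded PD0325901 by 0.43 (adjusted p = 0.00163) and oxozeaenol by 0.60 (adjusted p = 6.01e-05). The 3 groups that contained PI103 did not differ between neighbours in the order of levels at the threshold. Where the lncRNA gene MIR4435-2HG runs antisense to BCL2L11, it overlaps 10.9% of the exon length, and antisense BMF-AS1 overlaps 8.5% of that of BMF. Whether the counting used strand is not given in the sources used here, so reads in those stretches are uncertain.

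**Figure D2:**
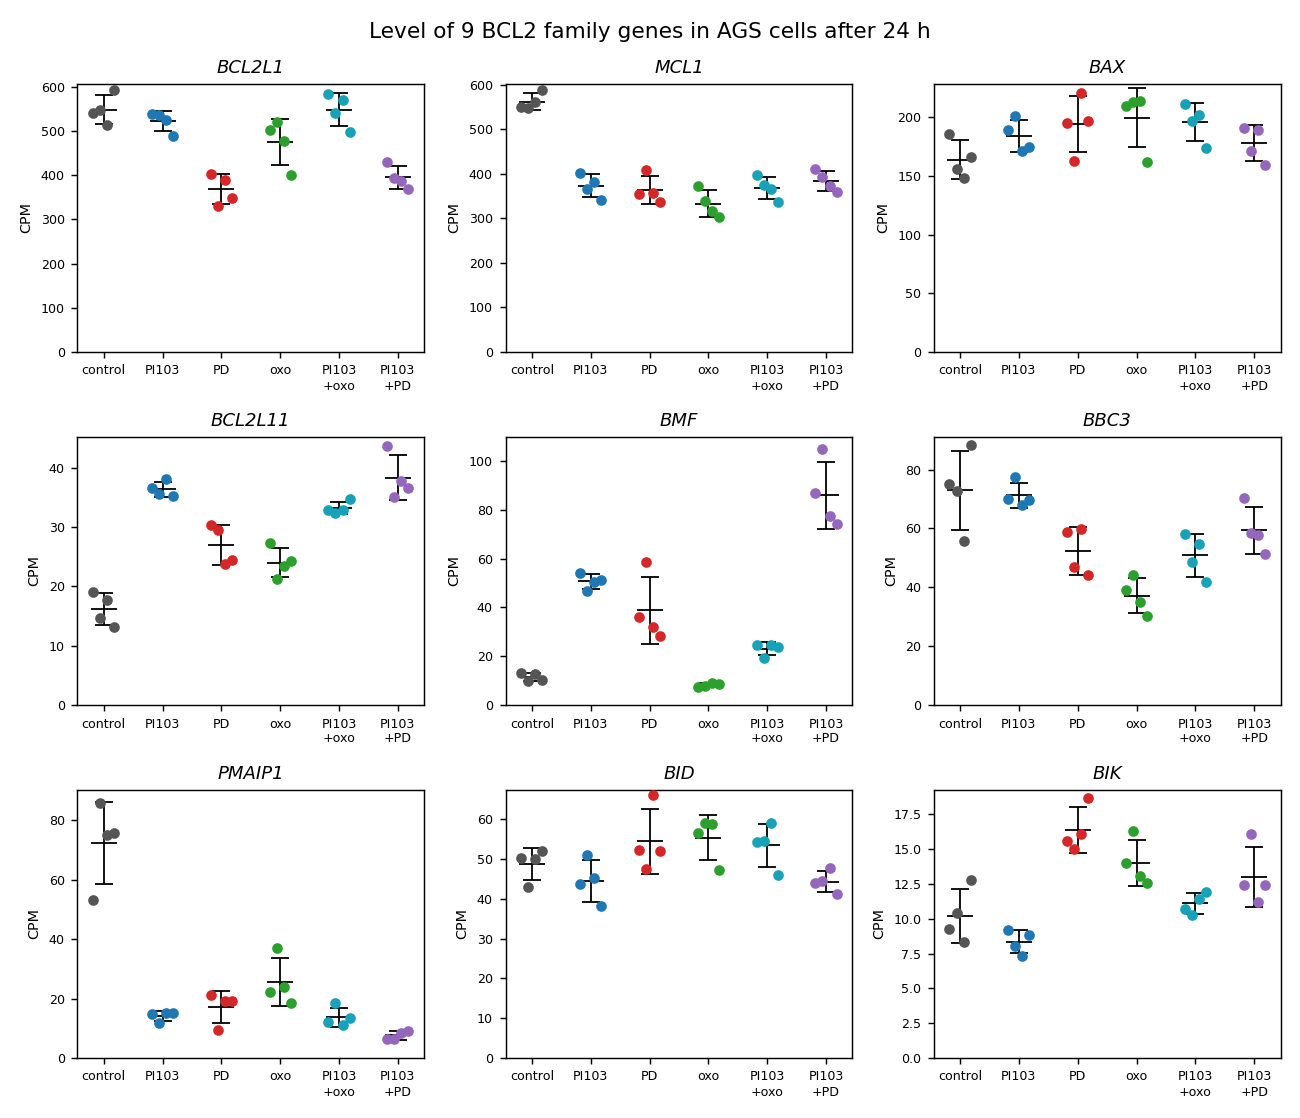
Level in CPM (vertical axes, from 0) of 9 genes in 6 groups (horizontal axes), with a point per library and the mean ± SD of 4 libraries as bars; PD is PD0325901 and oxo is oxozeaenol. All treated libraries lie above control for BCL2L11 and below it for MCL1 and PMAIP1, and BMF reaches 105 CPM with PI103+PD0325901.

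Of the remaining BH3-only genes, BBC3 and BIK were called against control in several treatments and BID in none. BBC3, which encodes PUMA, which binds all major anti-apoptotic members, had 75.0, 72.8, 55.6 and 88.2 CPM in control and 39.2, 44.1, 35.0 and 30.1 CPM with oxozeaenol. These groups did not overlap, and the decrease was 1.96-fold (log2 -0.97, SE 0.137, adjusted p = 1.87e-06). BBC3 also fell with PD0325901 (log2 -0.48, adjusted p = 0.00373) and PI103+oxozeaenol (log2 -0.52, adjusted p = 0.00202), although both groups overlapped with control. With PI103+PD0325901 the difference of -0.29 missed the threshold (adjusted p = 0.0589) and passed it with the batch as a block (-0.31, adjusted p = 0.0344), without control replicate 3 (-0.39, adjusted p = 0.015) or without PI103+PD0325901 replicate 1 (-0.39, adjusted p = 0.0198). With PI103 it was -0.03 (adjusted p = 0.861), and PI103 lay above oxozeaenol by 0.94 (adjusted p = 5.02e-06).

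BIK, which encodes a BH3-only protein of the endoplasmic reticulum, differed between PI103 and PD0325901. PD0325901 libraries held 15.6, 15, 16.1 and 18.7 CPM and PI103 libraries 9.19, 8.05, 7.32 and 8.85 CPM, against 9.28, 10.4, 8.34 and 12.8 CPM in control. All PD0325901 libraries lay above all control and PI103 libraries, while PI103 overlapped with control. The rise with PD0325901 was 1.6-fold (log2 0.68, SE 0.126, adjusted p = 4.56e-05), and PI103 was lower than PD0325901 by 0.97 on the log2 scale (adjusted p = 8.05e-07). With PI103 against control the difference was -0.29 (adjusted p = 0.0602), which passed with the batch as a block (-0.28, adjusted p = 0.0456) and without control replicate 1, control replicate 3 or PI103 replicate 1 (-0.33, -0.38 and -0.34). Oxozeaenol raised BIK by 0.46 (adjusted p = 0.00363), although the groups overlapped, with oxozeaenol replicate 4 at 12.6 CPM and control replicate 4 at 12.8 CPM. The rise of 0.35 with PI103+PD0325901 (adjusted p = 0.0161) missed the threshold without control replicate 1 (0.31), without control replicate 3 (0.28) or without PI103+PD0325901 replicate 2 (0.24).

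BID, which is cut by caspase 8 and links death receptors to mitochondria, had group means from 44.3 to 55.4 CPM and no call against control, with differences from -0.14 to 0.18. With total counts only and no TMM, BID passed with PD0325901 (0.24, adjusted p = 0.0443). Its levels with PI103 were below those with oxozeaenol by 0.32 on the log2 scale (interval of ±2 SE from -0.53 to -0.11, adjusted p = 0.0157), a call lost without PI103 replicate 4 (-0.26, adjusted p = 0.0631).

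Among the anti-apoptotic genes, MCL1, whose protein turns over quickly and is the main partner of NOXA, was lower in every treatment. Control libraries held 550.2, 547, 562 and 588 CPM, and the highest treated library held 411 CPM. No treated group overlapped with control. The decreases ran from 1.46-fold with PI103+PD0325901 (log2 -0.55, SE 0.0829, adjusted p = 2.36e-06) to 1.69-fold with oxozeaenol (log2 -0.76, SE 0.0831, adjusted p = 3.86e-08). PI103, PD0325901 and PI103+oxozeaenol gave -0.59, -0.63 and -0.61. Below control, no neighbours in the order of MCL1 levels differed at the threshold, and PI103 and PD0325901 were 0.03 apart (interval of ±2 SE from -0.13 to 0.20, adjusted p = 0.761). The ends of that order did differ, with PI103+PD0325901 above oxozeaenol by 0.21 (adjusted p = 0.045). This call held in 6 of 14 alternatives.

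BCL2L1, which encodes BCL-xL, was lower in both groups given PD0325901. PD0325901 libraries held 403, 331, 389.8 and 348 CPM and PI103+PD0325901 libraries 430.2, 393, 388 and 369 CPM, against 541, 548, 513 and 594 CPM in control. Neither group overlapped with control. The decreases were 1.49-fold (log2 -0.58, SE 0.0882, adjusted p = 3.89e-06) and 1.39-fold (log2 -0.47, SE 0.0881, adjusted p = 4.19e-05). PI103 libraries held 538, 537, 525 and 489 CPM (log2 -0.07, adjusted p = 0.519), and PI103+oxozeaenol differed from control by -0.00 (adjusted p = 0.993). PD0325901 was below PI103 by 0.51 (adjusted p = 4.17e-05). The difference of -0.21 with oxozeaenol was at the threshold (adjusted p = 0.0498) and was lost on leaving out any control library, oxozeaenol replicate 3 or oxozeaenol replicate 4 (adjusted p from 0.0552 to 0.208). The antisense lncRNA gene ABALON overlaps 43.0% of the BCL2L1 exon length, and counts per gene do not separate the long from the short splice form, whose proteins have opposite effects on cell death.

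BCL2 itself was close to undetected, at 0 to 9 counts per library and 0 to 0.170 CPM, and was left out by the filter on low counts. Control libraries held 3, 3, 5 and 2 counts, and the 8 libraries of PD0325901 and PI103+PD0325901 held 0 to 0.0626 CPM. Fitted without the filter, BCL2 had no call against control. PI103 was then above PD0325901 by 2.17 (adjusted p = 0.0141), and oxozeaenol was above PD0325901 by 2.10 (adjusted p = 0.0319). PI103+PD0325901 was at -1.84 from PI103 (adjusted p = 0.0346) and -1.78 from oxozeaenol (adjusted p = 0.0424). These differences rest on a few counts.

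BAX, the effector that forms the pore in the outer membrane, was at 186, 156, 148 and 166 CPM in control. Oxozeaenol libraries held 209.5, 213, 214 and 162 CPM, and the groups overlapped through the last of these. The rises of 0.24 with PD0325901 (adjusted p = 0.0443), 0.28 with oxozeaenol (adjusted p = 0.0235) and 0.26 with PI103+oxozeaenol (adjusted p = 0.0369) were near the threshold. Each was lost without the filter on low counts (adjusted p = 0.0812, 0.0648 and 0.114). They held in only 2, 3 and 2 of 8 fits that left out 1 library, and each was lost without control replicate 2 or control replicate 3 (differences from 0.21 to 0.26). PI103 and PI103+PD0325901 were at 0.16 (adjusted p = 0.186) and 0.11 (adjusted p = 0.339), and no neighbours in the order of BAX levels differed at the threshold. With total counts only and no TMM, both passed against control (0.24 each, adjusted p = 0.0486 and 0.0346).

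To set members beside each other, CPM were divided by the merged length of all annotated exons (kb) from GENCODE release 29. That may not be the annotation used for counting. On that per-length scale BCL2L1 made up 37.7% ± 0.467 (SD, n = 4) and MCL1 29.3% ± 1.06 of the summed level of the 10 genes in control. The 3 anti-apoptotic genes together made up 67.0% ± 0.712 in control, 64.6% ± 1.15 with PI103 and 58.2% ± 2.12 with PD0325901. Their share was 62.4% ± 1.25 with oxozeaenol, 65.7% ± 0.179 with PI103+oxozeaenol and 60.4% ± 0.693 with PI103+PD0325901. The share of BAX was 14.4% ± 1.41 in control and 18.9% to 22.4% in the treatments. The 6 BH3-only genes took 18.6% ± 1.24 in control and 14.5% to 19.6% in the treatments. These shares are given without a test, and shares of 1 sum move against each other by construction.

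Within the summed per-length level of the BH3-only genes, PMAIP1 was the leading transcript in control at 39.7% ± 5.94 and BMF the last at 2.61% ± 0.627. In control replicate 1, PMAIP1 (32.3%) and BBC3 (32.0%) were nearly equal. The order depends on the lengths used. In CPM, control means were 72.9 for BBC3 and 72.5 for PMAIP1, and BIK (10.2) lay below BMF (11.4). With PI103+PD0325901, PMAIP1 was last at 5.13% ± 1.36 and BMF stood at 23.3% ± 2.13. PI103 alone gave 10.2% ± 1.35 for PMAIP1 and 14.9% ± 0.940 for BMF, and oxozeaenol gave 20.3% ± 3.54 and 2.74% ± 0.560. BIK took 26.7% with PD0325901 and with oxozeaenol, against 13.1% ± 1.38 in control. BCL2L11 took 3.03% ± 0.799 of this sum in control and 6.29% to 9.09% in the treatments. The stacked shares of the BH3-only transcripts show these values.

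**Figure D3:**
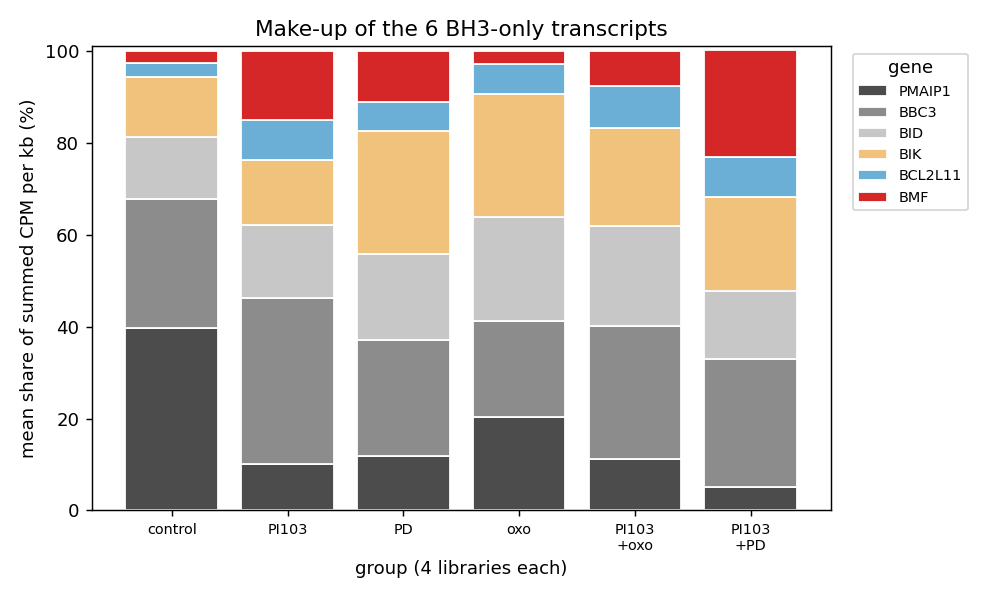
Mean share of 6 BH3-only genes in their summed CPM per kb (vertical axis, percent) in each group of 4 libraries; PD is PD0325901 and oxo is oxozeaenol. PMAIP1 (bottom segment) shrinks from 39.7% in control to 5.13% with PI103+PD0325901, and BMF (top segment) grows from 2.61% to 23.3%.

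Each combination was set against the mean of the log2 changes of its single agents, a reference for agents at 50% of their concentrations. No agent was given alone at 50%, so whether log2 changes scale with concentration was not tested. A call against this mean therefore cannot tell joint action from how each agent responds to its concentration. For PI103+PD0325901, 3 of the 9 tested members passed, beside 22.0% of all genes. BMF lay 0.96 above the mean (SE 0.134, adjusted p = 2.22e-05) and PMAIP1 differed from it by -1.04 (SE 0.206, adjusted p = 0.00106). Both held on leaving out any of the 12 libraries. BCL2L11 lay 0.29 above the mean (SE 0.0896, adjusted p = 0.022), a call lost without PI103+PD0325901 replicate 1 (0.22, adjusted p = 0.113). BMF and PMAIP1 also went beyond each agent at its full concentration. BMF was higher than with PI103 by 0.76 (adjusted p = 0.000573) and higher than with PD0325901 by 1.15 (adjusted p = 3.16e-05). For PMAIP1 the differences were -0.90 (adjusted p = 0.00321) and -1.18 (adjusted p = 0.00112). In each of these 4 comparisons the groups did not overlap and all 4 batches went the same way.

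At the threshold, each other member passed against at most 1 of the agents of PI103+PD0325901. BIK was above PI103 by 0.64 (adjusted p = 0.000282). Its difference of -0.33 from PD0325901 (adjusted p = 0.0663) passed with the batch as a block (-0.33, adjusted p = 0.0367), by DESeq2 (-0.33, adjusted p = 0.0493) and without replicate 2 of either group (-0.38 and -0.45). BCL2L1 was below PI103 by 0.40 (adjusted p = 0.000769) and 0.10 from PD0325901 (interval of ±2 SE from -0.07 to 0.28, adjusted p = 0.444). BCL2L11 was above PD0325901 by 0.50 (adjusted p = 0.00174) and 0.08 from PI103 (interval from -0.13 to 0.28, adjusted p = 0.606). MCL1 was 0.04 from PI103 and 0.08 from PD0325901. In all, 4 of the 9 members passed against PI103, beside 38.7% of all genes, and 4 against PD0325901, beside 18.1%. The fourth call against PD0325901, BID at -0.30 (adjusted p = 0.0473), was lost in 7 of 8 fits that left out 1 library, PD0325901 replicate 3 giving the smallest value (-0.19).

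For PI103+oxozeaenol no member passed against the mean of the agents, beside 3.98% of all genes. By edgeR 1 member had an unadjusted p under 0.05, and DESeq2 called 0. The shares of all genes by these measures are not reported here, and the share above is no background for them. The nearest was PMAIP1 at -0.47 (interval of ±2 SE from -0.87 to -0.08, adjusted p = 0.22), and BMF was at 0.19 (interval from -0.09 to 0.47, adjusted p = 0.569). BMF lay between the agents, at -1.13 from PI103 (adjusted p = 1.82e-05) and 1.51 above oxozeaenol (adjusted p = 2.81e-06). PMAIP1 was lower than with oxozeaenol by 0.90 (log2 -0.90, adjusted p = 0.0089), and missed the threshold without oxozeaenol replicate 2 (-0.66, adjusted p = 0.0524). BIK was above PI103 by 0.41 (adjusted p = 0.0262), a call lost without any of 4 libraries (PI103 replicates 2 and 3, PI103+oxozeaenol replicates 3 and 4). It was -0.34 from oxozeaenol (adjusted p = 0.0679), which passed with the batch as a block (-0.34, adjusted p = 0.0396). With that block BID also passed, at 0.26 from PI103 (adjusted p = 0.0345). In all, 3 members passed against PI103, beside 18.3% of all genes, and 4 against oxozeaenol, beside 14.9%. Between the combinations 3 members differed, beside 29.9% of all genes: with PI103+PD0325901, BMF was higher by 1.90 (adjusted p = 1.62e-08), while BCL2L1 (-0.47, adjusted p = 0.00026) and PMAIP1 (-0.85) were lower. BID passed as well with the batch as a block (-0.27, adjusted p = 0.0221).

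**Figure D4:**
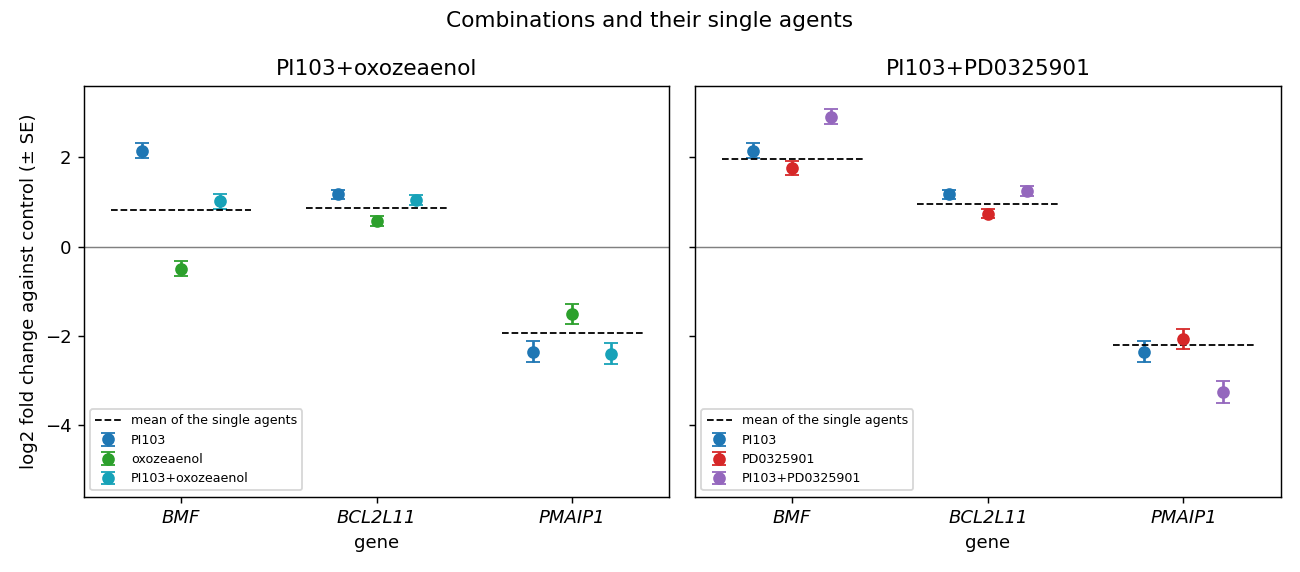
Log2 fold change against control ± SE (vertical axis) of BMF, BCL2L11 and PMAIP1 for each combination and its single agents, with the mean of the agents as a dashed line. With PI103+PD0325901, BMF (2.91) and PMAIP1 (-3.26) lie beyond both agents, and with PI103+oxozeaenol BMF (1.01) lies between them.

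The single agents also differed among themselves, and each combination was set against the agent it did not contain. PI103+oxozeaenol differed from PD0325901 in 4 of the 9 tested members, beside 36.8% of all genes, and PI103+PD0325901 from oxozeaenol in 7, beside 43.9%. Between PI103 and PD0325901, 5 of the 9 tested members passed, beside 44.5% of all genes, and between PI103 and oxozeaenol 6 passed, beside 43.1%. Between oxozeaenol and PD0325901 3 passed, beside 28.5%: BMF was lower with oxozeaenol (-2.26, adjusted p = 2.26e-09), BBC3 was lower (-0.49, adjusted p = 0.00889) and BCL2L1 was higher (0.37, adjusted p = 0.00306). BCL2L11 was higher with PI103 than with either other agent. PMAIP1 was lower with PI103 than with oxozeaenol (-0.85, adjusted p = 0.00388) and -0.28 from PD0325901 (interval of ±2 SE from -0.73 to 0.17, adjusted p = 0.328).

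For each tested member the gene with the most similar 5 changes against control was found by root mean square (RMS) difference, among genes with a mean of at least 5 CPM. The nearest to PMAIP1 was HK2, the glycolytic enzyme hexokinase 2 (RMS 0.265), which changed by -2.09 for PI103, -2.20 for PD0325901, -1.47 for oxozeaenol, -1.93 for PI103+oxozeaenol and -3.04 for PI103+PD0325901. The nearest to BMF was SYNPO, which encodes the actin-binding protein synaptopodin (RMS 0.328), at 1.51, 1.54, -0.74, 0.87 and 2.92 in the same order. These distances are the largest among the members. The other members had closer neighbours, among them BCL2L11 with PAN2 (RMS 0.0747), MCL1 with RAB24 (RMS 0.051) and BCL2L1 with E2F3 (RMS 0.0462). Within the family, the nearest tested member to BMF was BCL2L11 at 1.09 and the nearest to PMAIP1 was MCL1 at 1.81.

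Of 11 other BCL2 family genes, 8 could be tested, and BCL2A1, BCL2L10 and HRK had too few counts. The counts for this and the next lists are to be read beside the share of all genes called, which was 51.4% for PI103, 58.6% for PD0325901, 51.9% for oxozeaenol, 55.6% for PI103+oxozeaenol and 64.8% for PI103+PD0325901. It lay between 25.2% and 32.6% in each direction, and no list was tested against it. BCL2L13, which encodes an outer-membrane protein that also acts in mitophagy, fell in all 5 treatments, from 71.8 CPM in control to 41.7 to 48.9 CPM (log2 -0.55 to -0.78). BAK1, the other pore-forming effector, fell with PI103 (-0.71), oxozeaenol (-0.36) and both combinations (-0.70 and -0.58), and was at -0.19 with PD0325901 (adjusted p = 0.0955). BCL2L2, which encodes the anti-apoptotic BCL-w, fell in 4 treatments by 0.29 to 0.52 on the log2 scale and was at -0.18 with PI103 (adjusted p = 0.05). BCL2L15 rose with PD0325901 (1.60), oxozeaenol (0.79) and PI103+PD0325901 (1.14). BOK rose with PI103 (0.61) and both combinations (0.32 each). Over the list, 1 rose and 2 fell with PI103, 2 rose and 3 fell with PD0325901, 1 rose and 4 fell with oxozeaenol and with PI103+oxozeaenol, and 2 rose and 4 fell with PI103+PD0325901. The median change of the list lay between -0.06 and -0.21, beside -0.02 to 0.02 over all genes.

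Downstream of the mitochondrion, 9 genes of the apoptosome and the caspases were tested. APAF1, the scaffold on which caspase 9 is activated, rose with PI103 (0.58), PD0325901 (0.94) and both combinations (0.50 and 0.90). CYCS, the gene of cytochrome c, fell in the same 4 treatments by 0.59 to 0.92 on the log2 scale and was at -0.06 with oxozeaenol (adjusted p = 0.762). CASP6 rose in 4 treatments and CASP9 fell with PI103 (-0.51), oxozeaenol (-0.38) and PI103+oxozeaenol (-0.68). The list held 3 rises and 2 falls with PI103, 4 and 2 with PD0325901 and with oxozeaenol, 4 and 4 with PI103+oxozeaenol, and 5 and 2 with PI103+PD0325901. Its median lay between 0.08 and 0.36.

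Among 8 inhibitors of apoptosis and their antagonists, BIRC7, which encodes livin, rose with PI103 (1.12), PD0325901 (0.66) and PI103+PD0325901 (1.76) and fell with oxozeaenol (-2.10, adjusted p = 1.19e-05), from a control mean of 1.81 CPM. BIRC2, which encodes cIAP1, fell with PI103 (-0.32), PD0325901 (-0.41), oxozeaenol (-0.68), PI103+oxozeaenol (-0.58) and PI103+PD0325901 (-0.26). BIRC3, the cIAP2 gene and a target of NF-kB, fell with PD0325901 (-0.54), oxozeaenol (-0.97) and PI103+oxozeaenol (-0.66). Leaving out 1 library, the calls of BIRC7 and BIRC3 with PD0325901 held in 3 of 8 fits each, and that of BIRC2 with PI103+PD0325901 in 4 of 8. DIABLO, whose protein SMAC antagonises these inhibitors, rose in 4 treatments by 0.36 to 0.47 and was at 0.07 with PI103. Over the list, 1 rose and 1 fell with PI103, 1 rose and 4 fell with oxozeaenol, 1 rose and 3 fell with PI103+oxozeaenol, and 2 rose and 2 fell with PI103+PD0325901. With PD0325901, 3 rose and 2 fell, a total of 5 that ranged from 2 to 6 over the alternatives. The median of the list lay between -0.25 and 0.01.

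In the death receptor pathway, 9 of 10 genes were tested and FASLG had 0 counts in every library. TNFRSF10B, the TRAIL receptor DR5, fell in all 5 treatments, from 198 ± 9.08 CPM in control to 78.6 ± 8.84 with PD0325901 (log2 -1.33, adjusted p = 2.63e-12). TNFRSF10A, the receptor DR4, fell in all 5 as well, by 0.47 to 1.50 on the log2 scale, and so did TNFRSF1A, by 0.45 to 0.64. RIPK1, a kinase at the junction of survival and death signalling, rose in all 5, from 67.4 CPM in control to between 86.2 and 113 CPM. Each treatment lowered 4 of the tested genes and raised 3 or 4, and the median of the list lay between -0.23 and 0.09. Of 7 genes whose proteins degrade, spare or anchor members, FBXW7, part of a ubiquitin ligase that targets MCL1, fell in all 5 treatments (-0.35 to -0.57). DYNLL2, the dynein light chain that anchors BMF, rose with PI103 (0.60), PD0325901 (0.25), oxozeaenol (0.38) and both combinations (0.54 and 0.41), the call with PD0325901 being lost without control replicate 4 (adjusted p = 0.0684). That list held 1 rise and 1 fall with PI103, 3 and 2 with PD0325901, 2 and 3 with oxozeaenol, and 2 and 2 with each combination. The total of 5 dropped to 3 with PD0325901 without control replicate 4, and with oxozeaenol without oxozeaenol replicate 4 or with only the groups compared. Its median lay between -0.19 and 0.12.

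The 9 transcription factors known to act on BH3-only genes were counted next. ATF4 and DDIT3, which belong to the integrated stress response and are known to act on PMAIP1 and BBC3, fell in all 5 treatments. DDIT3 changed by -3.87 under PI103, -1.70 under PD0325901, -1.94 under oxozeaenol, -3.37 under PI103+oxozeaenol and -3.05 under PI103+PD0325901. ATF4 changed by -1.19, -0.69, -0.46, -0.99 and -1.46 in the same order. In that order BBC3 changed by -0.03, -0.48, -0.97, -0.52 and -0.29, and PMAIP1 by -2.35, -2.07, -1.51, -2.40 and -3.26. Whether these changes are linked was not tested. FOXO3, known to act on BCL2L11, fell in all 5 (-0.63 to -1.08), while FOXO1 rose with PI103 (0.63) and fell with PD0325901 (-0.56) and oxozeaenol (-0.80). FOXO4 rose with PI103 (1.38), PD0325901 (1.16) and PI103+PD0325901 (1.66), from a control mean of 2.29 CPM, and fell with oxozeaenol (-0.52, adjusted p = 0.032), a call that held in 4 of 8 fits without 1 library. TP73 rose in all 5 treatments from a control mean of 0.165 CPM, by 0.94 with PI103 (adjusted p = 0.0446, held in 4 of 8 such fits) and by 1.95 to 3.23 in the others. The list held 4 rises and 4 falls with PI103, 2 and 5 with PD0325901, 2 and 6 with oxozeaenol, and 3 and 4 with each combination, with a median between -0.56 and 0.21. The activity of these factors was not measured.

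As a readout of ERK signalling, its target DUSP6 changed by -5.18 with PD0325901 and -5.08 with PI103+PD0325901. The changes were -2.54 with oxozeaenol, -1.43 with PI103 and -1.91 with PI103+oxozeaenol. The other readouts fixed for the inhibitors, SPRY4, IL8 and INSR, are not reported here, so PI3 kinase, mTOR and TAK1 have no readout here.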

How the data were processed

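The values deposited by the authors are raw counts, 1 row per gene symbol, from libraries made with a stranded mRNA kit, per the labels' protocols. The genome build was GRCh38, per the submitters' processing notes, and the aligner, the counting program, the annotation and the use of strand are not given in the sources used here. Reads tallied as without a feature (4.24% to 8.57%), ambiguous (1.57% to 2.01%) or without a unique alignment (4.64% to 6.06%) entered neither the library sizes nor the tests. Groups were taken from the sample titles.

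Counts were filtered with filterByExpr, which kept 13947 genes and 99.989% of the counts, scaled by TMM, and modelled in R 4.3.3 by edgeR 4.0.16 with 1 coefficient for each group over the 24 libraries. For 17 contrasts, edgeR's quasi-likelihood F test (two-sided) was used, with Benjamini-Hochberg adjustment over all genes and calls at an adjusted p under 0.05. The procedure was run on simulated data in which few genes changed, in the PI103 group only, and no batch effect was added. That run cannot speak for data in which most genes move or batches differ. The common biological coefficient of variation was 0.131. Standard errors are the absolute log2 fold change over the square root of F, and CPM use the TMM-scaled library size. Depth was 38057638 to 84226380 counts per library, so of the members only BCL2, with at most 9 counts, was limited by counting.

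The labels' batch number pairs the samples: over 60 pairs with the same number, the correlation of deviations from group means averaged 0.12, against -0.04 over 180 other pairs. Deviations within a group cancel by construction, so the second average follows largely from the first and is no separate baseline. A replicate block was run as an alternative, beside DESeq2 1.42.0, its size factors, total counts, no filter, only the groups compared, and each library left out.

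The named genes are all 10 members, genes of the fixed lists and, for each tested member, the gene with the closest 5 changes against control, and some list results are not reported here. The members and lists were chosen with earlier results of these data known. The p-values measure the spread between replicates of 1 cell line.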

Additional observations from a re-analysis of the deposited data

Results flagged for a closer look

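In a group of 4 libraries a value was marked when its gap to the nearest other, divided by the range of the group, exceeded Dixon's 95% critical value. Of 60 groups tested over the 10 members, 3 were marked, and chance marks about 5% of groups. BMF in PI103+oxozeaenol replicate 2 was 19.1 CPM, with the other libraries at 23.9 to 24.7 CPM. PMAIP1 in PI103 replicate 2 was 11.7 CPM, with the others at 14.8 to 15.2 CPM. BAX in oxozeaenol replicate 4 was 162 CPM, with the others at 209.5 to 214 CPM. None of these libraries was left out of the fit.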

How the results depend on the processing

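No member's call changed direction in any alternative. Of 153 member changes, DESeq2 kept 149 on their side of the threshold and added 4 calls, DESeq2 size factors kept 153, and the replicate block kept 146 and added 7, so the pairing removed no call. The block called 5 members with PI103 and 7 with PI103+PD0325901 against control, beside 7848 and 9604 of the 13947 genes tested. Without it these were 4 and 6 members, beside 7162 and 9039 genes, so the counts over all genes rose as well. Without TMM, the median of all genes with PI103+PD0325901 against control moved by 0.12, from 0.01 to 0.13. Over fits without 1 library, the members called with oxozeaenol against control went from 8 to between 5 and 7. Counts over all genes moved more. With only the groups compared, oxozeaenol against PD0325901 gave 2348 in place of 3976, PI103+oxozeaenol against PI103 4088 in place of 2553, PI103+PD0325901 against PD0325901 1222 in place of 2521, and PI103+oxozeaenol against the mean of its agents 887 in place of 555, or 997 with the replicate block. On leaving out 1 library, oxozeaenol against PD0325901 ranged from 2385 to 4282, PI103+oxozeaenol against oxozeaenol (2074) from 1050 to 2571, PI103+PD0325901 against PD0325901 from 1385 to 3113, PI103+PD0325901 against PI103+oxozeaenol (4170) from 2702 to 3997, PI103+oxozeaenol against the mean from 232 to 781, and PI103+PD0325901 against the mean (3065) from 1466 to 3977. The cause was not tested. The alternatives leave the changes of BMF, PMAIP1, BCL2L11 and MCL1 called in every treatment except BMF with oxozeaenol. Changes below about 0.3 on the log2 scale, as for BAX and BID, are at the limit of 4 libraries per group, and counts per symbol show neither splice forms nor proteins.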
